A study of Mus musculus with 18 samples.

Results

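The 8 genes followed here belong to the mineralised matrix and to osteocytes, and were measured through osteogenic induction of mouse neural crest cells: Ibsp, Dmp1, Spp1 and Mepe, which encode members of the small integrin-binding ligand N-linked glycoprotein (SIBLING) family, and Phex, Fam20c, Pdpn and Sost. They were chosen by name, with earlier results of these data known, as 8 of the 55335 gene identifiers counted in the series. All 8 were matched to an identifier. The cells were wildtype O9-1 cells, a mouse cranial neural crest line, kept in osteoblast differentiation medium and sampled as bulk poly(A) RNA on day 2.5 (d2.5) and day 5 (d5). On each day Ctrl+vehicle cells had received a scrambled siRNA and no FGF2, Ctrl+FGF2 cells the scrambled siRNA and FGF2, and Y/T dKD+FGF2 cells an siRNA pool against both Yap and Taz together with FGF2. Each of the 6 groups had 3 libraries (18 in all), and no group combined the knockdown with vehicle, so the knockdown was read under FGF2 alone. The labels give each day its own batch, and a difference between days cannot be told apart from a difference between batches. Nothing in the labels says that the replicates were separate cultures, so the p-values measure the spread between these libraries, which may be technical.

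The SIBLING proteins are acidic, heavily phosphorylated secreted proteins that bind integrins and mineral. Ibsp encodes bone sialoprotein, which promotes mineral nucleation in bone, Spp1 encodes osteopontin, which inhibits crystal growth and is made by many cell types, Dmp1 encodes dentin matrix protein, typical of early osteocytes and odontoblasts, and Mepe encodes a matrix phosphoglycoprotein of osteocytes. Fam20c encodes the Golgi kinase that phosphorylates these secreted proteins. Phex encodes a membrane endopeptidase of osteoblasts and osteocytes that cleaves peptides derived from Mepe and osteopontin. Pdpn encodes podoplanin (E11), a membrane glycoprotein found on early osteocytes and also on lymphatic endothelium and fibroblasts, and Sost encodes sclerostin, the Wnt antagonist of mature osteocytes. In bone, the stages run from preosteoblasts through matrix-forming osteoblasts to osteocytes embedded in mineral.

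The 4 SIBLING genes lie head to tail on the plus strand of chromosome 5 within 238.4 kb (GRCm38, the mm10 sequence, GENCODE M21). Dmp1 spans chr5:104202613-104214102, Ibsp chr5:104299171-104311469, Mepe chr5:104325329-104338611 and Spp1 chr5:104435118-104441050. Fam20c lies far away on the same chromosome at chr5:138754514-138810077, Phex at chrX:157162075-157415312 on the minus strand, Pdpn at chr4:143267431-143299564 on the minus strand and Sost at chr11:101962458-101967015 on the minus strand. A same-strand transcript that the annotation marks as still to be verified, Gm42793, overlaps the first part of Spp1, and reads there could not be given to either gene. It held 21 to 123 counts per group. The files name the genes by versioned Ensembl identifiers, ENSMUSG00000029307.7 (Dmp1), ENSMUSG00000029306.8 (Ibsp), ENSMUSG00000053863.3 (Mepe), ENSMUSG00000029304.14 (Spp1), ENSMUSG00000025854.15 (Fam20c), ENSMUSG00000057457.11 (Phex), ENSMUSG00000028583.14 (Pdpn) and ENSMUSG00000001494.6 (Sost).

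RefSeq promoter sequences (GRCm38.p6) were read for all 8 genes, as the 250 bases before the annotated start. The stretches below are those of the 4 SIBLING genes, which share a stretch of chromosome and moved differently, and of Phex, whose levels ran with those of Dmp1. They are written 5′ to 3′ on the strand of the gene, and bases that GENCODE M21 places inside the transcript were left out, except for 30 bases of Ibsp. The RefSeq start of Ibsp lies 116 bases after the GENCODE start, and its ATTGG falls between them, before the start in RefSeq and inside the transcript in GENCODE. Capitals mark CCAAT or its complement ATTGG, then the TATA-like motif TTTAAA, and lastly the core bound by Runx factors, which reads ACCACA on one strand and in its complement reads TGTGGT.
Dmp1, chr5:104202367-104202612: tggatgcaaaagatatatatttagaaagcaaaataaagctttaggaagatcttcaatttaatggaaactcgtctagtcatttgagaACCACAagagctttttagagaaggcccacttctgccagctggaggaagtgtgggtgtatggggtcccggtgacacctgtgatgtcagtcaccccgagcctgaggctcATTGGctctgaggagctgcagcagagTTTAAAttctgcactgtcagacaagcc
Spp1, chr5:104434861-104435110: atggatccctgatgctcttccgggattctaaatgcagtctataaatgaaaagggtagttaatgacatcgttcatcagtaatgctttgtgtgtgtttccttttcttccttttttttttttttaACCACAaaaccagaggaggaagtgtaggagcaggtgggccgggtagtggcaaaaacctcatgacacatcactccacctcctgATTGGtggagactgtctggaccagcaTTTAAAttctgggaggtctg
Mepe, chr5:104325079-104325328: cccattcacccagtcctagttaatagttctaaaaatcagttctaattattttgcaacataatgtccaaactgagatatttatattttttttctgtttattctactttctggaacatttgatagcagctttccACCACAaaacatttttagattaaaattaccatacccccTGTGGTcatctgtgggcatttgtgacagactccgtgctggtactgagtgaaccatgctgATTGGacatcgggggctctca
Ibsp, chr5:104299037-104299170: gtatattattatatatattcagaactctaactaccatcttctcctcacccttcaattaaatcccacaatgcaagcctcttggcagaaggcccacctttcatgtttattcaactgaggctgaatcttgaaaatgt
Ibsp around ATTGG, chr5:104299221-104299250: gccacagctgtgATTGGctgttgagaggcg
Phex, chrX:157415313-157415536, minus strand: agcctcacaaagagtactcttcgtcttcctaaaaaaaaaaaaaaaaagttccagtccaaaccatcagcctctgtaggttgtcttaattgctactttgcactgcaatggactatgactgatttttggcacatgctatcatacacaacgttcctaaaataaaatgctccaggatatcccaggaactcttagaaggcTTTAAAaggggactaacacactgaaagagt

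Each of the 4 SIBLING promoters held 1 ATTGG, whose first base stood 57 bases before the RefSeq start in Dmp1, 54 in Ibsp, 46 in Spp1 and 21 in Mepe. It was not particular to them: Sost held ATTGG 56 bases and Fam20c CCAAT 73 bases before the RefSeq start. CCAAT on either strand occurs in 33.8% of 32851 RefSeq promoter windows of the same length. TTTAAA followed in Dmp1, 31 bases before the start, and in Spp1, 20 bases before it. Phex (56 bases before the start), Pdpn (49 bases) and Sost (30 bases) also held TTTAAA, which 12.1% of all windows contain. Dmp1, Spp1 and the undetected Sost thus held both motifs, as do 4.12% of all windows. ACCACA or its complement was found in Dmp1, Spp1 and Mepe (14.0% of windows). A search on both strands for CATTCC, the core bound by the TEAD partners of Yap and Taz, and for TGANTCA, the AP-1 site, found no match in the 8 windows, against 12.6% and 6.75% of all windows. These letters were picked after the sequences had been seen, and a match is not evidence of binding.

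Gene counts ranged from 10377151 to 14698525 per library (median 12330911). Levels are given as CPM, gene counts divided by the library size, normalised over the 18 libraries, and levels of different genes are compared only per kilobase of exon. On that scale Spp1 stood at 2428 ± 55.3 CPM per kb (SD, n = 3) in d2.5 Ctrl+vehicle cells, rank 4 of all genes there, followed among the 8 genes by Ibsp (99.7 ± 1.82 CPM per kb) and Pdpn (12.95 ± 0.594 CPM per kb). Dmp1 (4.29 ± 0.270 CPM per kb), Mepe (1.01 ± 0.173), Fam20c (0.626 ± 0.107) and Phex (0.498 ± 0.0534) were all far lower. The order was already different in d2.5 Ctrl+FGF2 cells. There Spp1 (4196 ± 31.4 CPM per kb) was followed by Dmp1 (164.6 ± 4.18), Pdpn (36.2 ± 1.78) and Ibsp (19.9 ± 0.386). In d2.5 Y/T dKD+FGF2 cells Spp1 (5319 ± 163 CPM per kb) was again followed by Dmp1 (354 ± 20.3 CPM per kb), above Ibsp (38.1 ± 1.88 CPM per kb). Spp1 alone took 0.932% of all gene counts in that group.

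Sost and Mepe mark the lower limit of what these libraries could show. Sost had 0 counts in each of the 18 libraries, which allows a level of at most 0.0738 to 0.0850 CPM per group (3 counts over the 3 libraries, counting error only). No comparison could be made for Sost at this depth. Mepe had 231 counts over the 18 libraries, with 6 to 72 per group, and passed the filter on low counts on both days, so it was tested but read with care. The other 6 genes had from 1563 (Phex) to 992676 counts (Spp1) in total.

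**Figure D1:**
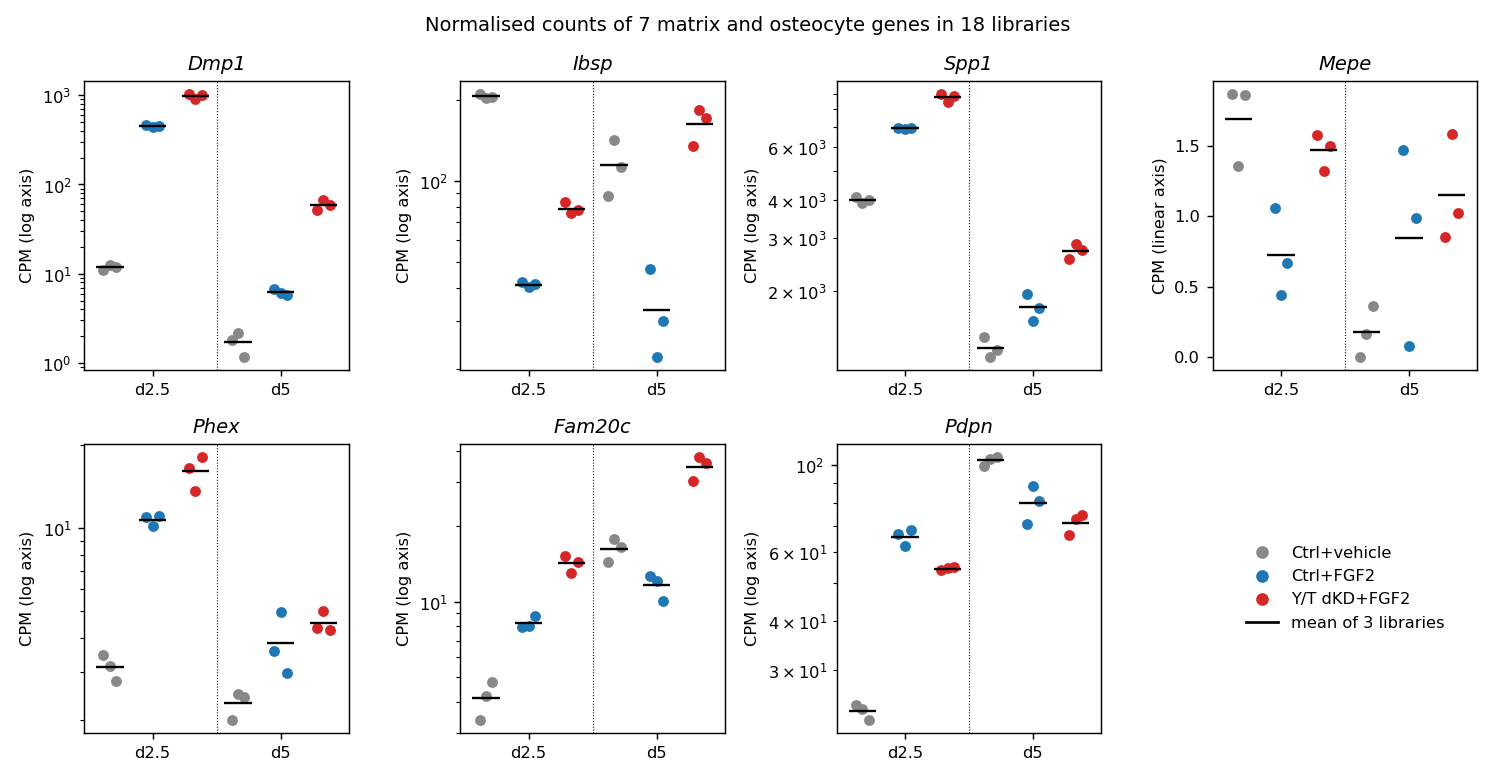
Normalised counts (CPM) of the 7 detected genes in each of the 18 libraries, on a log axis except for Mepe (linear axis, since 1 library is at 0). Points are libraries, colours the 3 arms, black lines the means of 3 libraries. Dmp1 lies between 443 and 467 CPM in d2.5 Ctrl+FGF2 libraries against 11.0 to 12.5 CPM with vehicle, while Ibsp moves the other way.

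Under FGF2, the siRNA pool lowered both of its targets in part. Yap1 stood at 66.8 ± 2.45 CPM after knockdown against 129 ± 2.80 CPM without it at d2.5 (n = 3 each), and at 70.5 ± 3.40 against 152 ± 5.96 CPM at d5. Wwtr1, which encodes Taz, fell as well, with log2 fold changes of −0.72 at d2.5 and −0.80 at d5 (edgeR quasi-likelihood test, adjusted p = 2.6e-15 and 4.9e-11). FGF2 itself raised Wwtr1 at d2.5 (0.65 ± 0.04, edgeR adjusted p = 1.3e-16), and Wwtr1 in d2.5 Y/T dKD+FGF2 cells, at 136 ± 5.97 CPM, overlapped with Ctrl+vehicle at 139.8 ± 1.87 CPM (log2 −0.06 ± 0.04, edgeR adjusted p = 0.12), whereas Yap1 was below vehicle (−1.18 ± 0.04, edgeR adjusted p = 1.6e-21). Of the neural crest markers, Sox10 and Foxd3 were at 0 in all 6 groups, while Twist1, Tfap2a and Ets1 were detected and the summed list lay between 124.8 and 211.7 CPM. The 5 osteoblast markers summed to 2085 to 33025 CPM and rested mainly on Col1a1. In bulk RNA, fewer cells of a type and less RNA per cell cannot be told apart. Markers of other cell types moved as well: summed chondrocyte markers were at 704 to 924 CPM in d2.5 Ctrl+vehicle libraries and 112.5 to 129 CPM in both FGF2 groups of that day, and summed smooth muscle markers at 168 to 231 CPM and 13.7 to 23.7 CPM. At d5 those lists covered 222 to 432 CPM and 2032 to 3070 CPM. Macrophage and osteoclast markers reached 47.0 to 49.2 CPM in d5 Ctrl+vehicle libraries, nearly all of it Ctsk, and at most 8.86 CPM elsewhere, with Adgre1 at 0 in 5 of the 6 groups. Endothelial and lymphatic markers summed to at most 3.87 CPM, with Cdh5 at 0 throughout, epithelial markers to at most 6.26 CPM, and adipocyte markers to between 16.9 and 55.3 CPM. Their part in the results below was not tested.

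The first question was how FGF2 changed these genes early in induction. At d2.5 FGF2 split the SIBLING genes: Dmp1 rose 38.0-fold and Spp1 1.72-fold, whereas Ibsp fell to 0.198 and Mepe to 0.430 of the vehicle level. Phex, Fam20c and Pdpn rose. All 7 tested genes passed the threshold, 5 upward and 2 downward, in a comparison in which 33.5% of 13677 tested genes were called higher and 34.1% lower. Being called was thus common at d2.5, and the median absolute log2 fold change of all called genes was 0.51.

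Dmp1 measured 11.0, 12.5 and 11.98 CPM in the Ctrl+vehicle libraries and 467, 443 and 455 CPM in the Ctrl+FGF2 libraries at d2.5. The groups were far apart, and the log2 fold change of 5.25 ± 0.05 (SE; edgeR, adjusted p = 3.8e-35) was the 47th largest in absolute size among the 13677 genes. Ibsp measured 210, 203 and 206 CPM with vehicle and 41.8, 40.2 and 41.2 CPM with FGF2. Every FGF2 library lay below every vehicle library (log2 fold change −2.34 ± 0.04, edgeR adjusted p = 6.9e-29). Spp1 was high in both arms, at 4088, 3906 and 4009 CPM with vehicle and 6954, 6857 and 6936 CPM with FGF2, and rose by 0.78 ± 0.03 on the log2 scale (edgeR adjusted p = 7.3e-22). Mepe, the gene of few counts, had 27, 21 and 24 counts with vehicle and 15, 6 and 10 counts with FGF2. Its groups did not overlap either (log2 fold change −1.22 ± 0.30, edgeR adjusted p = 7.7e-04), and the ratio of summed counts, corrected for depth, was 0.431 with a 95% counting interval from 0.273 to 0.665.

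Among the enzymes, Phex measured 3.45, 3.16 and 2.78 CPM with vehicle and 11.0, 10.2 and 11.0 CPM with FGF2 at d2.5, a 3.38-fold rise (log2 1.76 ± 0.14, edgeR adjusted p = 1.7e-12). Fam20c, the secretory-pathway kinase, measured 3.38, 4.195 and 4.79 CPM with vehicle and 7.96, 8.01 and 8.76 CPM with FGF2, close to a doubling (1.99-fold, log2 0.99 ± 0.14, edgeR adjusted p = 1.3e-07). Pdpn measured 24.4, 23.8 and 22.3 CPM with vehicle and 66.6, 62.2 and 68.4 CPM with FGF2 (2.77-fold, log2 1.47 ± 0.06, edgeR adjusted p = 1.9e-20). None of these 3 genes had overlapping groups. How common such separation was among all tested genes was not computed.

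The second question was what the partial knockdown of Yap and Taz did while FGF2 was present. At d2.5 the knockdown raised all 4 SIBLING genes, Phex and Fam20c and lowered Pdpn. For Dmp1, Spp1, Phex and Fam20c this was the direction of FGF2, and for Ibsp, Mepe and Pdpn the opposite one. Of the 7 tested genes, 6 were called higher and 1 lower, where 10.8% of all tested genes were called higher and 13.6% lower. The FGF2 and knockdown comparisons share the Ctrl+FGF2 libraries, so their values are given side by side and no relation between them was computed.

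Dmp1 rose from 455 to 1026, 917 and 994 CPM in the 3 knockdown libraries at d2.5, a 2.14-fold difference (log2 1.10 ± 0.03, edgeR adjusted p = 2.7e-20). Ibsp reached 83.1, 75.6 and 77.7 CPM, 1.90-fold above Ctrl+FGF2 (log2 0.93 ± 0.05, edgeR adjusted p = 3.6e-15). Both genes were higher in every knockdown library than in any Ctrl+FGF2 library. Spp1 stood at 8971, 8461 and 8865 CPM, a smaller step of 0.33 ± 0.03 on the log2 scale (edgeR adjusted p = 8.2e-11). Phex measured 16.5, 13.6 and 18.2 CPM (log2 0.57 ± 0.10, edgeR adjusted p = 1.3e-04), and Fam20c measured 15.2, 13.1 and 14.4 CPM (log2 0.78 ± 0.11, edgeR adjusted p = 3.0e-06). Pdpn was the gene that went down, to 53.8, 54.6 and 54.9 CPM (log2 −0.28 ± 0.05, edgeR adjusted p = 9.8e-05). Mepe had 19, 17 and 19 counts (log2 1.00 ± 0.32, edgeR adjusted p = 0.022). The Mepe call was lost when all 18 libraries were fitted together (adjusted p = 0.089) and when any of 4 single libraries was left out, with adjusted p from 0.070 to 0.12: Ctrl+FGF2 replicate 2 or 3, or Y/T dKD+FGF2 replicate 1 or 3.

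**Figure D2:**
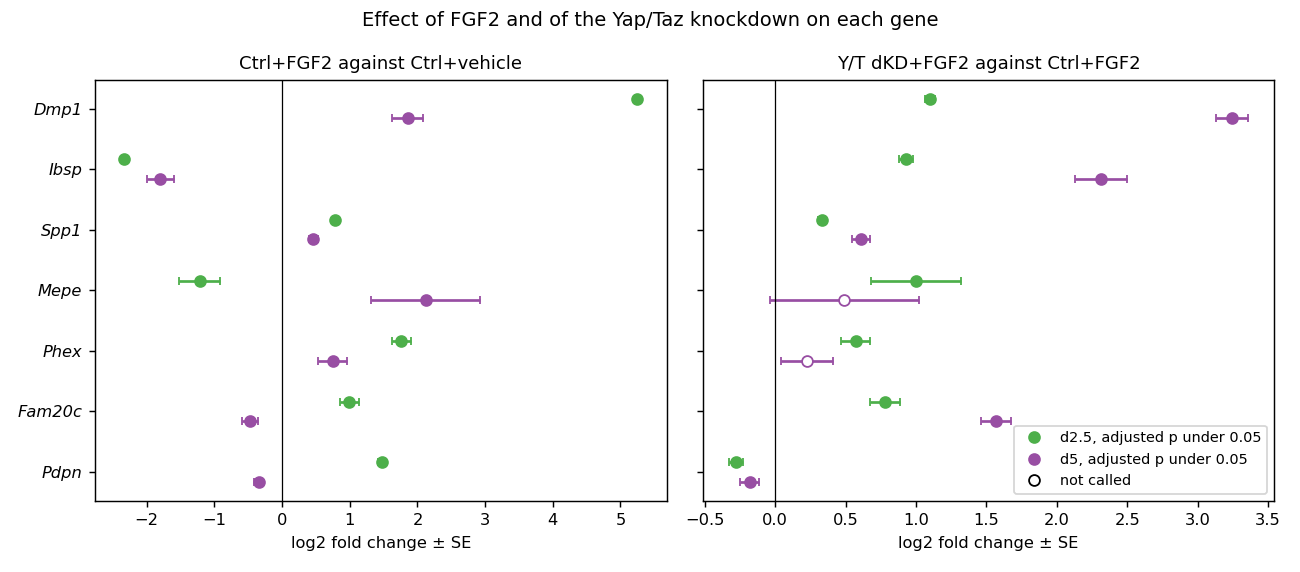
Log2 fold change ± SE (edgeR) of the 7 tested genes for FGF2 against vehicle (left) and for the Yap/Taz knockdown under FGF2 (right), at d2.5 (green) and d5 (purple). Filled points passed an adjusted p under 0.05 and open points did not, and the horizontal scales of the panels differ. Dmp1 lies at 5.25 and 1.86 on the left and at 1.10 and 3.24 on the right.

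Set against Ctrl+vehicle directly, a comparison in which Yap1 but not Wwtr1 was called lower, d2.5 Y/T dKD+FGF2 cells had 81.3 times as much Dmp1 (log2 6.35 ± 0.05, edgeR adjusted p = 2.4e-37), the 24th largest absolute change of 13677. Phex was 5.03-fold, Fam20c 3.42-fold, Pdpn 2.28-fold and Spp1 2.16-fold higher. Ibsp remained below vehicle at 0.377 of its level (log2 −1.41 ± 0.04, edgeR adjusted p = 5.0e-24). For Mepe the difference of −0.22 ± 0.27 on the log2 scale did not pass (adjusted p = 0.48), and its 95% counting interval ran from 0.603 to 1.26 of the vehicle level. In all, 5 genes were called higher and 1 lower, with 34.1% and 35.7% of all tested genes called in those directions.

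Dmp1 and Ibsp, which start 96.6 kb apart, can also be compared as a ratio of counts within each library, which does not depend on how libraries are scaled. The ratio is not corrected for exon length (2764 bases for Dmp1, 2068 for Ibsp), so it serves to compare libraries. At d2.5 there were 0.0526, 0.0618 and 0.0582 Dmp1 counts per Ibsp count with vehicle, 11.2, 11.0 and 11.0 with FGF2, and 12.3, 12.1 and 12.8 after knockdown. The mean ratio thus rose from 0.0575 to 11.1 with FGF2 and was 12.4 after knockdown, 1.12 times the Ctrl+FGF2 ratio. At d5 the mean ratio was 0.0154 ± 0.00510 (SD, n = 3) with vehicle, 0.204 ± 0.0647 with FGF2 and 0.364 ± 0.0211 after knockdown. The groups did not overlap in any of the 6 within-day comparisons. The pair was chosen after both genes had been seen to move in opposite directions, so the ratio is a description and carries no test.

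**Figure D3:**
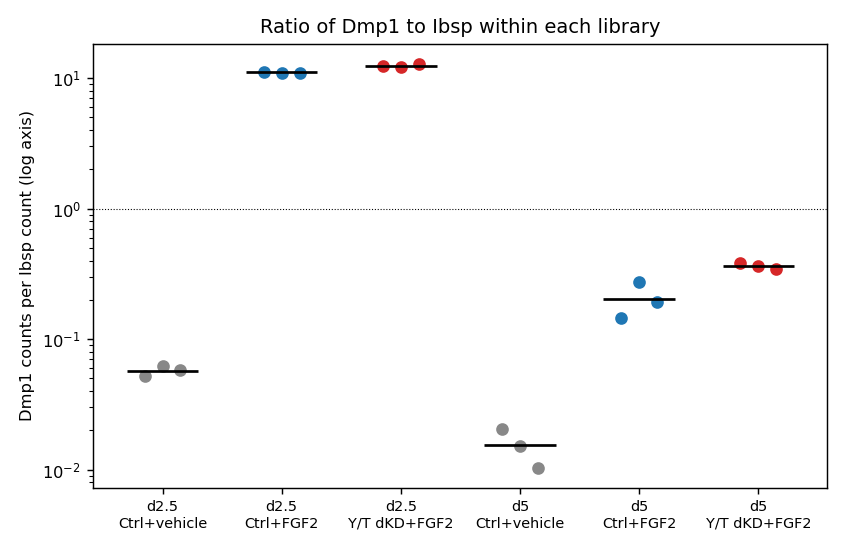
Dmp1 counts per Ibsp count within each of the 18 libraries (log axis). Points are libraries, colours the 3 arms, black lines the means, and the dotted line marks equal counts, not corrected for exon length. The 6 FGF2-treated libraries of d2.5 lie between 11.0 and 12.8, the other 12 at 0.384 or less.

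By d5 the response to FGF2 had a different make-up. Dmp1, Spp1 and Phex were still higher and Ibsp lower than with vehicle, but Fam20c and Pdpn were now lower, and Mepe was higher. Among the 7 genes, 4 were called higher and 3 lower, and 23.5% and 23.7% of 13304 tested genes were called in the same directions. Dmp1 measured 1.81, 2.17 and 1.17 CPM with vehicle and 6.80, 6.03 and 5.84 CPM with FGF2, 3.62-fold higher (log2 1.86 ± 0.23, edgeR adjusted p = 2.9e-06). These are low counts, 13 to 26 per vehicle library and 65 to 74 per FGF2 library, and the groups were apart. Ibsp measured 88.0, 142 and 112 CPM with vehicle and 47.0, 22.1 and 30.2 CPM with FGF2 (log2 −1.80 ± 0.19, edgeR adjusted p = 6.7e-07), with a wider spread than at d2.5 but no overlap. Spp1 lay at 1418, 1213 and 1277 CPM with vehicle and 1965, 1598 and 1769 CPM with FGF2 (log2 0.46 ± 0.06, edgeR adjusted p = 1.4e-05).

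Phex measured 2.01, 2.50 and 2.42 CPM with vehicle and 3.58, 4.97 and 2.96 CPM with FGF2 at d5 (log2 0.74 ± 0.21, edgeR adjusted p = 0.0084). Its call rested on Ctrl+FGF2 replicate 2, the highest library, without which the difference was 0.50 (adjusted p = 0.076). Fam20c measured 14.4, 17.8 and 16.6 CPM with vehicle and 12.7, 12.1 and 10.1 CPM with FGF2 (log2 −0.48 ± 0.12, edgeR adjusted p = 0.0029). Pdpn measured 99.8, 104 and 105 CPM with vehicle and 70.7, 88.8 and 81.1 CPM with FGF2 (log2 −0.35 ± 0.06, edgeR adjusted p = 2.5e-04). Both genes were lower in every FGF2 library than in any vehicle library. Mepe had 0, 2 and 4 counts with vehicle and 16, 1 and 11 with FGF2, and the groups overlapped. Its log2 fold change of 2.12 ± 0.81 passed narrowly (edgeR adjusted p = 0.039), the 95% counting interval of the ratio ran from 1.83 to 13.3, and the call was lost when any of 6 single libraries was left out: Ctrl+vehicle replicate 1 (log2 1.63) or 2, Ctrl+FGF2 replicate 1 (log2 1.46) or 3, or Y/T dKD+FGF2 replicate 1 or 3, with adjusted p from 0.051 to 0.20.

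At d5 the knockdown had its largest effects on Dmp1, Ibsp and Fam20c. Dmp1 rose 9.48-fold over Ctrl+FGF2, Ibsp 4.96-fold, Fam20c 2.96-fold and Spp1 1.52-fold, while Pdpn was marginally lower and Mepe and Phex did not pass. Among the 7 genes, 4 were called higher and 1 lower, against 15.6% and 16.1% of all tested genes. In absolute size the log2 fold change of Dmp1 ranked 8th and that of Ibsp 37th among 13304 tested genes.

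Dmp1 reached 51.8, 67.0 and 58.9 CPM in the d5 knockdown libraries, against at most 6.80 CPM in any other library of that day (log2 3.24 ± 0.11, edgeR adjusted p = 1.4e-12). Ibsp reached 135, 184 and 172 CPM (log2 2.31 ± 0.19, edgeR adjusted p = 4.0e-08), above each Ctrl+FGF2 library. Fam20c reached 30.3, 37.9 and 35.8 CPM (log2 1.57 ± 0.11, edgeR adjusted p = 4.1e-09), and Spp1 reached 2562, 2859 and 2738 CPM (log2 0.61 ± 0.06, edgeR adjusted p = 1.0e-06). These 4 genes did not overlap with Ctrl+FGF2, which was not compared with other genes. Phex stood at 4.34, 4.98 and 4.28 CPM, overlapping with Ctrl+FGF2 (log2 0.23 ± 0.19, edgeR adjusted p = 0.39; 95% counting interval of the ratio 0.924 to 1.49). Mepe had 10, 19 and 10 counts (log2 0.49 ± 0.53, edgeR adjusted p = 0.53), and its counting interval, 0.852 to 2.40, left both directions possible. Pdpn measured 66.4, 73.0 and 74.5 CPM, overlapping with Ctrl+FGF2, and the log2 fold change of −0.18 ± 0.07 (edgeR adjusted p = 0.048) did not pass in DESeq2 (adjusted p = 0.095). The Pdpn call was also lost without any of 6 single libraries (Ctrl+vehicle replicate 3, Ctrl+FGF2 replicate 2 or 3, each Y/T dKD+FGF2 replicate), with adjusted p from 0.060 to 0.28 and a value of −0.10 without Ctrl+FGF2 replicate 2.

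Against Ctrl+vehicle, Dmp1 in d5 Y/T dKD+FGF2 cells was 34.3-fold higher (log2 5.10 ± 0.15, edgeR adjusted p = 1.1e-13), the largest absolute log2 fold change of the 13304 genes tested in that comparison. Fam20c was 2.13-fold, Spp1 2.10-fold and Phex 1.96-fold higher, and Pdpn fell to 0.695 of the vehicle level. Mepe had 39 counts in the 3 knockdown libraries and 6 in the vehicle libraries (log2 2.61 ± 0.75, edgeR adjusted p = 0.0092; without Y/T dKD+FGF2 replicate 2, 2.29 with adjusted p = 0.055). Ibsp was called 1.43-fold higher (log2 0.51 ± 0.16, edgeR adjusted p = 0.015), but the groups overlapped, DESeq2 did not call it (adjusted p = 0.24), and the call was lost without Ctrl+vehicle replicate 1 or 3 or Y/T dKD+FGF2 replicate 2 or 3 (adjusted p 0.055 to 0.093). In all, 6 genes were called higher and 1 lower, with 20.7% and 21.1% of all tested genes called in those directions.

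Between d2.5 and d5 the genes parted again, with Dmp1 and Spp1 lower at d5 in every arm and Pdpn and Fam20c higher in every arm. From d2.5 to d5 the log2 fold change of Dmp1 was −2.78 ± 0.19 for Ctrl+vehicle cells, −6.19 ± 0.08 for those given FGF2 and −4.05 ± 0.06 after knockdown, and that of Spp1 was −1.62 ± 0.05, −1.96 ± 0.05 and −1.69 ± 0.05. Pdpn was higher at d5 by 2.13 ± 0.07, 0.29 ± 0.06 and 0.39 ± 0.06, and Fam20c by 1.99 ± 0.14, 0.50 ± 0.13 and 1.28 ± 0.10, in the same order of arms. Ibsp was lower at d5 with vehicle (−0.84 ± 0.12, edgeR adjusted p = 5.8e-07), higher after knockdown (1.05 ± 0.13, edgeR adjusted p = 1.9e-08) and not called in Ctrl+FGF2 (−0.33 ± 0.17, edgeR adjusted p = 0.081; −0.66 with adjusted p = 4.1e-04 without d5 Ctrl+FGF2 replicate 1). Phex was lower at d5 in both FGF2 arms (−1.47 ± 0.15 and −1.82 ± 0.14), and not called with vehicle (−0.43 ± 0.22, edgeR adjusted p = 0.079). Mepe fell in Ctrl+vehicle (−3.14 ± 0.59, edgeR adjusted p = 2.9e-05) and was not called in the other arms. Calls were very common between days, with 33.1% of 14198 genes higher and 33.2% lower for Ctrl+vehicle, 41.2% and 38.8% for Ctrl+FGF2, and 40.3% and 38.1% after knockdown, against which 2 and 4, 2 and 3, and 3 and 3 of the 7 genes were called.

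A joint model of the 18 libraries asked whether an effect had a different size on each day. The FGF2 effect changed for each of the 7 genes: it was smaller at d5 for Dmp1 (difference of log2 effects −3.42 ± 0.32, edgeR adjusted p = 1.6e-10), Spp1 (−0.34 ± 0.07) and Phex (−1.04 ± 0.27), and it turned from higher to lower for Pdpn (−1.84 ± 0.09) and Fam20c (−1.50 ± 0.19). For Ibsp the fall was slightly smaller at d5 (0.51 ± 0.21, edgeR adjusted p = 0.037), a call that was lost in DESeq2 (adjusted p = 0.21) and without any of 6 single libraries (d2.5 Ctrl+vehicle replicate 3, d2.5 Ctrl+FGF2 replicate 2 or 3, d5 Ctrl+vehicle replicate 1 or 3, d5 Ctrl+FGF2 replicate 1), with 0.18 left without the last. For Mepe the difference was 3.32 ± 0.82 (edgeR adjusted p = 8.4e-04). In all, 2 differences were positive and 5 negative, with 31.8% and 29.1% of all tested genes called in those directions. The knockdown effect was larger at d5 for Dmp1 (2.15 ± 0.12, edgeR adjusted p = 2.4e-13), Ibsp (1.38 ± 0.21, edgeR adjusted p = 2.1e-05), Fam20c (0.79 ± 0.16, edgeR adjusted p = 5.5e-04) and Spp1 (0.27 ± 0.07, edgeR adjusted p = 0.0078), and the difference did not pass for Mepe, Phex and Pdpn (adjusted p from 0.28 to 0.64). Those 4 positive calls compare with 11.6% of all tested genes called positive and 9.35% negative.

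With the 6 groups ordered by mean level, no neighbouring groups of Dmp1 and of Spp1 overlapped, which was not compared with other genes. Dmp1 ran from 979 ± 56.1 CPM in d2.5 Y/T dKD+FGF2 through 455 ± 11.6, 59.2 ± 7.59, 11.8 ± 0.746 and 6.22 ± 0.510 CPM to 1.71 ± 0.506 CPM in d5 Ctrl+vehicle (n = 3 each). Ibsp had its highest level, 206 ± 3.77 CPM, in d2.5 Ctrl+vehicle and its lowest, 33.1 ± 12.7 CPM, in d5 Ctrl+FGF2, where it overlapped with d2.5 Ctrl+FGF2. Its d5 knockdown and d5 vehicle groups overlapped too. Fam20c was highest in d5 Y/T dKD+FGF2 (34.6 ± 3.92 CPM) and lowest in d2.5 Ctrl+vehicle (4.12 ± 0.707 CPM), and Pdpn was highest in d5 Ctrl+vehicle (103 ± 2.76 CPM) and lowest in d2.5 Ctrl+vehicle (23.5 ± 1.08 CPM). For Mepe, 4 of the 5 neighbouring pairs overlapped.

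Genes next to the SIBLING cluster changed less than Dmp1 and Ibsp at d2.5. Dspp, the SIBLING gene of dentin, at −31.9 kb from the start of Dmp1, had 1 count over the 9 libraries of d2.5. Sparcl1, a matricellular gene at −88.9 kb, rose by 0.73 ± 0.05 with FGF2 at d2.5 and by 1.42 ± 0.09 at d5 on the log2 scale (edgeR adjusted p = 8.9e-14 and 1.1e-09). With the knockdown Sparcl1 rose by 0.45 ± 0.05 at d2.5 (edgeR adjusted p = 2.3e-08), more than Spp1, and was not called at d5 (−0.16 ± 0.08, edgeR adjusted p = 0.17). Hsd17b11, Nudt9, Pkd2 and BC005561, the other tested genes of the stretch, changed by −0.34 to 0.45 with FGF2 at d2.5, where Dmp1, Ibsp, Mepe and Spp1 ran from −2.34 to 5.25. With the knockdown at d5 the same 4 neighbours changed by −0.29 to 0.30. They changed by −0.31 to 0.56 with FGF2 at d5 and by 0.019 to 0.41 with the knockdown at d2.5. Spp1, at 0.46 and 0.33 in those comparisons, lay within these ranges.

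**Figure D4:**
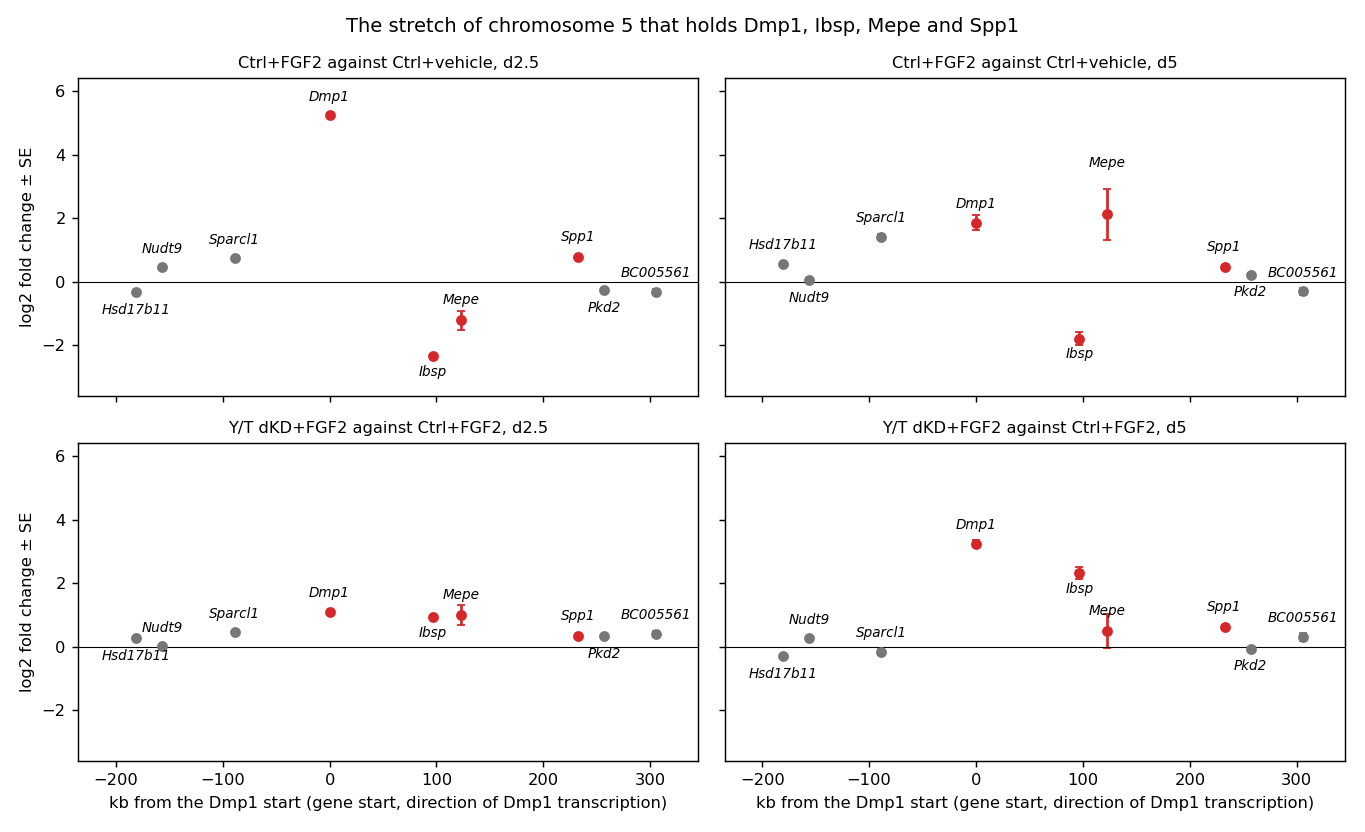
Log2 fold change ± SE (edgeR) of each tested gene in the stretch around the SIBLING genes, plotted at its start in kb from the start of Dmp1 and in the direction of Dmp1 transcription. The upper row shows FGF2 against vehicle and the lower row the knockdown under FGF2, at d2.5 (left) and d5 (right), with the SIBLING genes in red and other genes in grey. At d2.5 FGF2 moved Dmp1 up (5.25) and Ibsp, 96.6 kb away, down (−2.34).

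The pathways around these genes were followed with lists of named genes. Of 8 listed relatives of the SIBLING and secretory calcium-binding phosphoprotein genes, only Sparc and Sparcl1 passed the filter on low counts. The enamel and dentin genes of the list did not pass it. Sparc, an abundant bone matrix protein, fell with FGF2, with log2 fold changes of −1.46 ± 0.03 at d2.5 and −1.05 ± 0.03 at d5 (edgeR adjusted p = 1.1e-28 and 3.2e-13), and rose with the knockdown at d5 by 0.32 ± 0.03 (edgeR adjusted p = 1.1e-06). Sparcl1 went the other way with FGF2 at d2.5 (0.73 ± 0.05). Of the 2 genes, 1 was thus called higher and 1 lower there, against 33.5% and 34.1% of all tested genes. The median of these 2 opposite changes was −0.36, against 0.0022 over all tested genes.

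Among 14 receptors and processing enzymes of the SIBLING proteins, 12 were tested at d2.5, and FGF2 raised 3 and lowered 9 (median log2 fold change −0.27), where 33.5% of all tested genes were called higher and 34.1% lower with a median of 0.0022. Cd44, a receptor of osteopontin, rose by 0.57 ± 0.03. Itgb3, the beta subunit of the integrin that binds osteopontin and bone sialoprotein, was among those that fell (−1.42 ± 0.18), with Mmp2 (−1.18 ± 0.03) and Bmp1, a protease that cleaves Dmp1 (−0.69 ± 0.04). With the knockdown at d5, 6 of 13 tested genes rose and 2 fell (median 0.24), against 15.6% and 16.1% of all tested genes with a median of 0.0034. Among them were Itgb3 (0.77 ± 0.07), Cd44 (0.50 ± 0.04), Mmp2 (0.35 ± 0.04) and Itga8 (−0.47 ± 0.04).

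Of 8 partners of Fam20c in secretory phosphorylation, 7 were tested, and FGF2 raised 3 and lowered 3 at d2.5 (median 0.045), with 33.5% and 34.1% of all tested genes called in those directions. Fam20a, the pseudokinase that activates Fam20c, fell by 1.06 ± 0.17 there (edgeR adjusted p = 3.2e-06), whereas Fam20c rose. At d5 Fam20a was lower with FGF2 (−0.68 ± 0.05) and higher with the knockdown (0.66 ± 0.05, edgeR adjusted p = 5.6e-08), in the same directions as Fam20c on that day. With the knockdown at d5, 3 of the 7 rose and 2 fell (median 0.070), against 15.6% and 16.1% of all tested genes.

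Of 14 partners of Phex and Sost in phosphate, pyrophosphate and Wnt control, 9 were tested, and at d2.5 FGF2 raised 5 and lowered 4 (median 0.69), against 33.5% and 34.1% of all tested genes with a median of 0.0022. The genes that raise extracellular pyrophosphate, an inhibitor of mineral, were among the risers: Enpp1, which makes it, by 2.09 ± 0.12, and Ank, which exports it from the cell, by 1.65 ± 0.03 (edgeR adjusted p = 1.5e-15 and 2.6e-27). Lrp4, the sclerostin co-receptor, fell (−3.96 ± 0.13), as did Mef2c, an activator of Sost in osteocytes (−1.48 ± 0.05). At d5 FGF2 did not change Enpp1 past the threshold (−0.10 ± 0.15, edgeR adjusted p = 0.59). Ank was still higher with FGF2 on that day (0.71 ± 0.04, edgeR adjusted p = 1.4e-10). The knockdown raised Enpp1 by 1.61 ± 0.08 at d2.5 and 1.96 ± 0.12 at d5 (edgeR adjusted p = 7.9e-16 and 1.4e-09). It raised Ank less, by 0.23 ± 0.03 at d2.5 and 0.20 ± 0.04 at d5. At d5 it raised 3 and lowered 5 of the 9 (median −0.17), against 15.6% and 16.1% of all tested genes. Fgf23, the hormone that rises when Phex or Dmp1 is lost, was not among the tested genes.

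Of 17 further osteocyte genes 14 were tested, and FGF2 at d2.5 raised 4 and lowered 7 (median −0.15), against 33.5% and 34.1% of all tested genes. Mmp13, a collagenase of osteocytes and late osteoblasts, fell (−7.07 ± 0.19), as did Omd (−3.48 ± 0.05) and Irx5 (−1.34 ± 0.12), and Ezr rose (1.31 ± 0.07). The knockdown at d5 raised 9 and lowered 2 of the 14 (median 0.22), against 15.6% and 16.1% of all tested genes with a median of 0.0034. Tnfsf11, which encodes RANKL, rose by 2.24 ± 0.27, Mmp13 by 1.59 ± 0.09 and Gja1, the connexin of osteocyte gap junctions, by 1.15 ± 0.06, and Dstn fell by 0.36 ± 0.04. Of 14 genes of the osteoblast stage, 12 were tested, and FGF2 at d2.5 lowered 11 (median −2.74), the other being Smpd3 (0.25, not called), where 34.1% of all tested genes were called lower. Alpl, the mineral-promoting phosphatase, fell from 115 to 0.140 CPM (log2 −9.61 ± 0.17, edgeR adjusted p = 2.5e-29), and Pth1r (−5.37 ± 0.18) and Sp7, a transcription factor of osteoblasts (−2.82 ± 0.10), fell on the same day on which Dmp1 rose by 5.25. The knockdown at d2.5 called 2 of these 12 higher and 2 lower, and at d5 it called 8 higher and 1 lower (all tested genes 10.8% and 13.6% at d2.5, 15.6% and 16.1% at d5), including Pth1r (0.79 ± 0.08), Alpl (0.78 ± 0.09) and Sp7 (0.65 ± 0.09) upward and Smpd3 (−1.03 ± 0.21) downward. With FGF2 at d5, 3 of the 12 osteoblast genes were called higher and 8 lower (median −0.95), as were 2 and 8 of the 14 osteocyte genes (median −0.19), 5 and 3 of the 9 partners of Phex and Sost (median 0.17), 1 and 4 of the 7 partners of Fam20c (median −0.16) and 2 and 8 of the 13 receptors and enzymes (median −0.20). Of all tested genes, 23.5% were called higher and 23.7% lower there, with a median of 0.016. The knockdown at d2.5 called 3 of the 14 osteocyte genes higher and 4 lower (median 0.0055), 4 and 1 of the partners of Phex and Sost (median 0.14), 1 and 2 of the partners of Fam20c (median 0.036) and 5 and 1 of the 12 receptors and enzymes (median 0.039), against 10.8% and 13.6% of all tested genes.

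Likeness of pattern was described by the Pearson correlation of log2 CPM over the 18 libraries, which mostly reflects the 6 groups and the day and is given without a test. The 3 nearest genes to Dmp1 were Pla2g7 (r = 0.987), Eml5 (0.981) and Ywhaz (0.977), and those to Phex were Dock10 (0.981), Ank (0.981) and Socs5 (0.970). Spp1 was nearest to Asap1 (0.995), Ptma (0.991) and Nras (0.987), Ibsp to Gja1 (0.924), Lrp12 (0.904) and Bzw1 (0.904), Pdpn to Medag (0.985), Hk2 (0.981) and Vps26a (0.954), Fam20c to Mgp (0.938), Glipr1 (0.937) and Sema7a (0.936), and Mepe to Gpkow (0.822), Prcp (0.818) and Crocc (0.795). Among the members, Dmp1 went with Phex (0.954) and Spp1 (0.925) but not with Ibsp (−0.191), and Pdpn with Fam20c (0.697).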

How the data were processed

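Bulk poly(A) RNA from 18 O9-1 samples was sequenced by the authors with a SMARTER mRNA-Seq kit. The submitters' processing notes name FastQC, STAR, Picard, featureCounts and mm10, without versions. The deposited values were raw counts per gene, unstranded and for each strand. The reverse-strand column, which held 96.04 to 96.64% of stranded counts, was used. Reads on no gene (26.96 to 34.44% of counts) were left out of library sizes. Of 55335 identifiers, 55154 matched GENCODE M21 without the version and 54587 with it, so the counting release differed from M21.

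Within a day, 9 libraries entered 1 edgeR fit (version 4.0.16, R 4.3.3) with TMM factors, filterByExpr and a quasi-likelihood F-test, and contrasts between days and of effects with all 18. P-values were adjusted by Benjamini-Hochberg over all tested genes, and genes under 0.05 were called. The fit was tested on simulated d2.5 counts with a fixed spread between libraries. Only well-counted genes were changed there, so the simulation does not cover genes of few counts such as Mepe. CPM uses TMM factors over 18 libraries, and exon lengths came from M21. A member that failed the filter was given by counts only. All 8 members were named, with at most 4 called genes of each list at a mean log2 CPM of 1 or more, those with the largest change, and the 3 genes most like each member. The members and lists were chosen with earlier results of these data known. Alternatives were other scalings and filters, a replicate block, DESeq2 1.42.0, 1 fit of 18 libraries, 2 arms only, unstranded counts, a threshold of 0.01 and leaving out each library.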

Additional observations from a re-analysis of the deposited data

Results flagged for a closer look

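Effects that differed between the days by an interaction test (edgeR, all 18 libraries) are collected here, as the log2 effect at d5 minus that at d2.5. For FGF2 against vehicle the differences were −3.42 for Dmp1, −1.84 for Pdpn, −1.50 for Fam20c, −1.04 for Phex, −0.34 for Spp1, 0.51 for Ibsp and 3.32 for Mepe, all 7 detected members. For the Yap/Taz knockdown under FGF2 they were 2.15 for Dmp1, 1.38 for Ibsp, 0.79 for Fam20c and 0.27 for Spp1. Of all tested genes, 31.8% were called positive and 29.1% negative for FGF2, and 11.6% and 9.35% for the knockdown. The Ibsp call for FGF2 was lost in DESeq2 and without any of several single libraries, as given above. Each day is also a batch in the labels, so a difference between days cannot be told apart from the batch. The direction itself turned for Pdpn and Fam20c, which FGF2 raised at d2.5 and lowered at d5. The estimate for Mepe also changed sign, but Mepe had 6 counts in the d5 Ctrl+vehicle libraries. Its d5 groups overlapped, and its d5 call was lost without any of several single libraries. Groups held 3 libraries each, too few for a search for single outlying libraries.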

How the results depend on the processing

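The number of members called stayed within 1.5 times its value in each of the 11 comparisons under all alternatives that were run. Of 1694 values of single members under an alternative, 1648 kept their direction and their side of the threshold, 37 lost the call, 5 gained it and 4 changed sign. All 4 sign changes were of Mepe in comparisons where it was not called, and each came from leaving out 1 library: its values then ran from −0.086 to 1.15 for the knockdown at d5, from −0.49 to 0.76 for d5 against d2.5 in Ctrl+FGF2 (−0.49 without d5 Ctrl+FGF2 replicate 1, −0.077 without d2.5 Ctrl+FGF2 replicate 2), and from −1.09 to 0.15 for the difference of the knockdown effect between days. The cause was not tested. Upper-quartile factors moved the median of all genes by more than 0.1 for d5 against d2.5 in Ctrl+vehicle (−0.11) and for the FGF2 effect between days (0.12), and no called member changed direction.

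The labels do not say whether libraries of equal replicate number were paired. Deviations from the group means of same-numbered libraries correlated at −0.0722 to 0.032 at d2.5 and −0.0607 to 0.115 at d5, with 1 of 18 pairs over 0.1. With 3 libraries per group, such correlations cannot decide whether the libraries were paired. With a replicate block 7, 7 and 6 members were called at d2.5 and 7, 5 and 7 at d5 (FGF2, knockdown, both against vehicle), as without it. All pairs of replicates differed by more than counting noise (chi-square per degree of freedom 1.24 to 5.93). Sost, at 0 counts in 18 libraries, could not be compared, and the few counts of Mepe limit its precision.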
